A study of Mus musculus with 8 samples.

Results

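Aminoacyl-tRNA synthetases are the enzymes that attach each amino acid to its transfer RNA, the step that matches the genetic code to the protein made from it. A set of 36 mouse synthetase genes was followed here, 20 for the enzymes of the cytosol and 16 for those of the mitochondrion, whose symbols end in ars2. Probe sets of the array were taken where their platform annotation gave exactly 1 of these symbols or the same symbol with a final 1, as for Mars. A probe set shared by Aars and another gene was not used. This gave 72 probe sets for 35 genes, out of 34945 probe sets with 1 symbol for 18193 genes. The cytosolic genes had 40 probe sets for 19 genes and the mitochondrial genes 32 for all 16, and no probe set was found for Dars. The samples were germinal vesicle (GV) oocytes, immature mouse oocytes with an intact nucleus. An untreated group of 4 samples was set against 4 samples that had spent 48 h in culture with milrinone, a phosphodiesterase inhibitor that holds oocytes at this stage, and 15 µg of labelled cRNA from each sample went onto 1 single-colour array. The labels give no strain, age or cultured sample without the drug, so drug, culture and time cannot be told apart.

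Nearly every amino acid has a cytosolic enzyme and a mitochondrial one, both encoded by nuclear genes. Gars and Kars serve both compartments from 1 gene each. In the cytosol, Eprs, Iars, Lars, Mars, Qars, Rars, Kars and Dars make up the enzymes of a large multi-synthetase complex that is held together by scaffold proteins. Class I and class II synthetases differ in the fold of their catalytic domain. Full-grown oocytes make little new RNA and live on stored messages, and in many cell types the transcription factor ATF4 raises synthetase genes when amino acids are short or the endoplasmic reticulum is stressed.

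The deposited table leaves some cells empty, and a probe set counts as listed on the arrays where its cell is filled. All 11 oocyte marker genes on the array were listed on all 8 arrays. Markers of granulosa, cumulus and theca cells had a summed intensity of 99077 on untreated array 1, between 22476 and 25144 on untreated arrays 2 to 4 and between 2861 and 3991 in milrinone samples, and 9 of their 22 genes had their brightest probe set empty on all milrinone arrays, 2 of them on the untreated arrays too. Blood, stromal and endothelial markers had sums of 1481 to 16610 in untreated samples, again highest on array 1, and 624 to 784 in milrinone samples. Fewer cells of a type and less RNA per cell cannot be told apart in such samples. Untreated array 1 stood apart: its correlations with the rest had a median of 0.930, where the other 7 arrays had 0.966 to 0.980. Since the labels do not state whether replicates are separate animals, the p-values reflect only how these samples scatter, and that scatter may be technical. With equal cRNA mass on each array, levels are relative and not per oocyte.

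The cytosolic synthetases were listed far more completely than the mitochondrial ones. Of the cytosolic genes, 17 of 19 (89.5%) had at least 1 probe set listed on all 8 arrays, against 9 of 16 (56.3%) mitochondrial genes and 47.2% of the 18193 genes of the array. By probe set, 30 of 40 cytosolic and 11 of 32 mitochondrial ones were listed on all 8 arrays, against 32.0% of all 45037 probe sets that are not controls. Another 6 cytosolic and 9 mitochondrial probe sets were empty on all 8. Intensities of different probe sets are not on a shared scale, so a more completely listed gene is not shown to be more abundant. Numbers of listed synthetase probe sets ran from 46 to 55 on the untreated and from 46 to 51 on the milrinone arrays, with the most on untreated array 1.

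**Figure D1:**
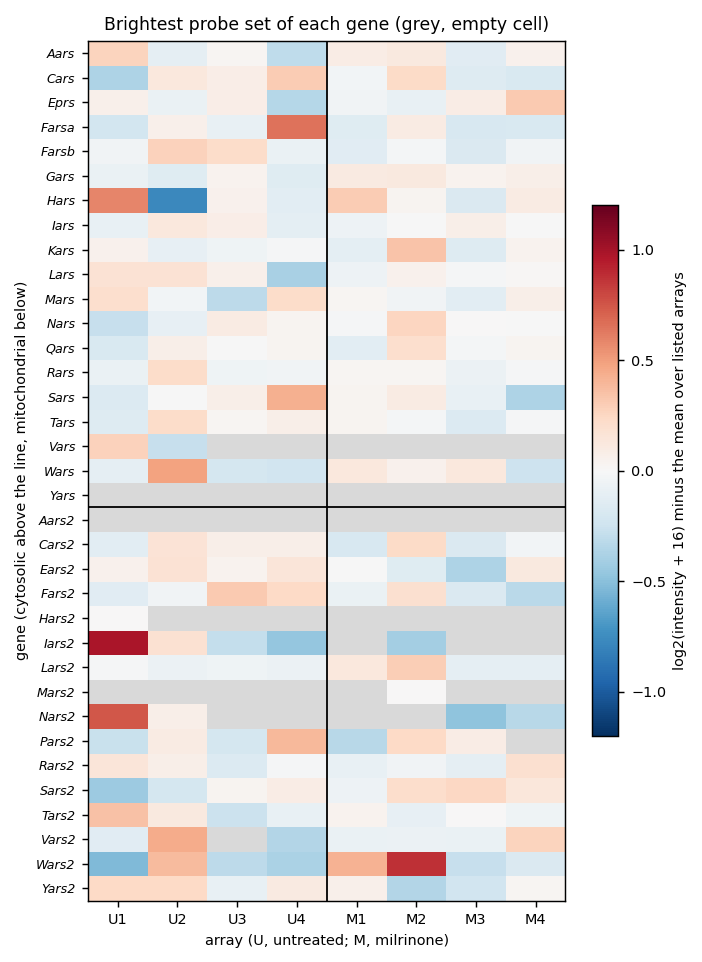
Log2(intensity + 16) of the brightest probe set of each of the 35 genes on each of the 8 arrays, minus its mean over the arrays that list it; U marks untreated and M milrinone arrays, and grey marks empty cells. The cytosolic genes are filled on all arrays except for Vars and Yars, whereas 7 of the 16 mitochondrial genes have grey cells.

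No synthetase gene was detected to change in milrinone. The test covered 16288 probe sets, those listed on 3 or more arrays of both groups, and 46 of them stood for 28 synthetase genes. None of the 46 passed limma at an adjusted p under 0.05, a threshold that 0.117% of all tested probe sets passed. Of the 46, 0 had an unadjusted p under 0.05, which 9.63% of all tested probe sets had. With quantile normalization this was 9 of the 46, against 11.6%. The 0.117% were 19 probe sets, all lower in milrinone, and 4 of these were for granulosa, cumulus and theca markers. The 9.63% were 916 higher and 652 lower probe sets. The part of those cells in these shares was not tested. In none of the 46 were the untreated and milrinone arrays fully apart, as they were for 7.8% of all tested probe sets. Counting each gene by its brightest tested probe set, 13 genes had a higher and 15 a lower mean in milrinone, and their median log2 difference (milrinone minus untreated) was -0.0052 against 0.06 for all tested probe sets. These differences ran from -0.25 for Yars2 to 0.42 for Wars2. The split depended on scaling: 2 of the 28 genes were higher after quantile normalization, with a median of all tested probe sets of -0.13, and 23 after centring on ribosomal proteins, with a median of 0.23.

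The spread between arrays set how much could have been seen. By brightest probe sets, the 95% interval of the log2 difference lay within 1 of zero for 27 of the 28 genes (96.4%). Over all 46 tested synthetase probe sets this held for 44 (95.7%), against 90.4% of all tested probe sets. It lay within 0.5 of zero for 20 of 28 genes (71.4%) and 31 of 46 probe sets (67.4%), against 40.4% of all tested probe sets. Among the brightest probe sets, the exception at the wider bound was Wars2, whose interval ran to 1.05. A p that misses the threshold does not show that these genes stayed level. The intervals give the sizes that remain possible at this spread under the deposited scaling, and they do not include the shifts that other scalings brought.

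**Figure D2:**
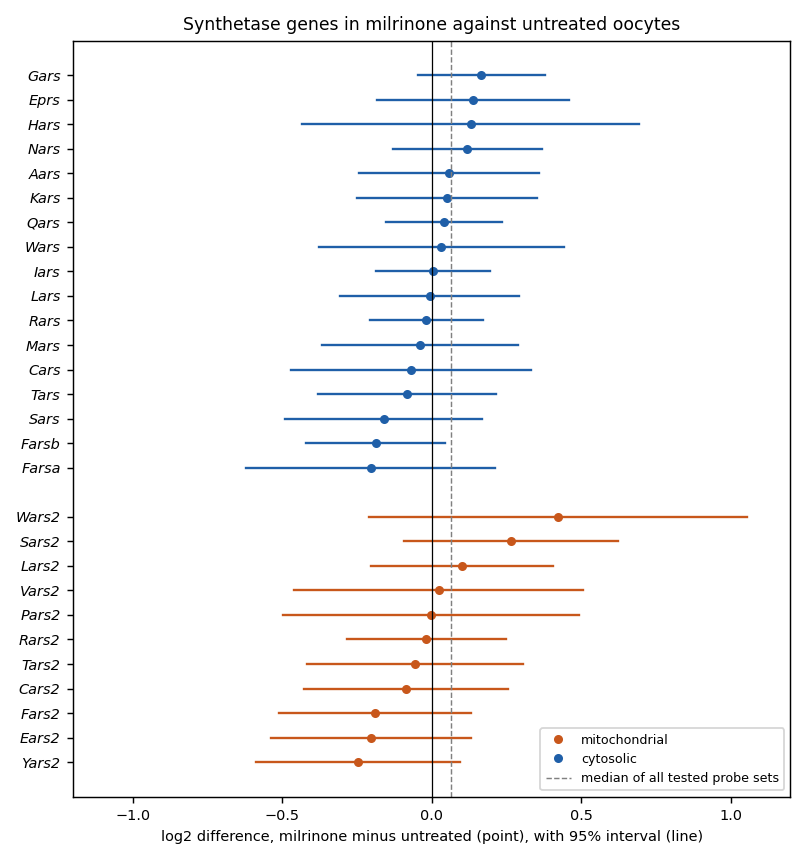
Log2 difference (milrinone minus untreated) of the brightest tested probe set of 17 cytosolic and 11 mitochondrial synthetase genes, each with its 95% interval from limma over 4 arrays a group. Every interval crosses zero, and the dashed line is the median of all tested probe sets, 0.06.

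Among the cytosolic genes, Farsb had the smallest limma p. The phenylalanine enzyme is built from its product and that of Farsa, which ranked behind Gars, Qars and Hars. The dimmest of 3 tested Farsb probe sets had 1392, 1724, 1666 and 1545 on untreated arrays 1 to 4 and 1168, 1439, 1258 and 1366 on milrinone arrays 1 to 4. Its milrinone values lay mostly below the untreated ones and overlapped them, and it differed by -0.27 (95% interval -0.54 to 0.00098, limma adjusted p = 0.514). The brightest Farsb probe set had 3641, 4534, 4375 and 3531 in untreated and 3414, 3672, 3307 and 3645 in milrinone samples, a log2 difference of -0.19 (adjusted p = 0.558). The remaining tested one differed by -0.05. A dimmer Farsb probe set that was not tested had a higher mean in milrinone. It was listed at 127 and 314 on untreated arrays 1 and 4, and at 304, 309, 221 and 430 on milrinone arrays 1 to 4. Farsa, for the partner subunit, had 979, 1194, 1072 and 1809 in untreated and 1033, 1228, 999 and 1007 in milrinone samples. Its log2 difference of -0.20 (95% interval -0.62 to 0.21, adjusted p = 0.699) rested on untreated array 4, and leaving out 1 array at a time moved it between -0.31 and -0.020.

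Gars, the glycine enzyme of both cytosol and mitochondrion, had the highest cytosolic difference. Its probe set had 2039.8, 1949, 2224 and 1953 in untreated and 2330.4, 2337, 2218 and 2269.9 in milrinone samples. All 4 milrinone values exceeded 3 of the untreated ones, the groups overlapped, and the log2 difference was 0.17 (95% interval -0.05 to 0.38, adjusted p = 0.567). Kars, the lysine enzyme that also serves both compartments, differed by 0.05, with means of 1304 ± 58.9 (SD, n = 4) untreated and 1364 ± 228 (SD, n = 4) in milrinone.

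By their brightest probe sets, the 7 tested enzymes of the multi-synthetase complex lay within a narrow range. Their log2 differences ran from -0.04 for Mars to 0.14 for Eprs with a median of 0.0032, and all 7 intervals lay within 0.5 of zero. Qars, the glutamine enzyme, had 3439, 4147, 3811 and 4564 in untreated and 4296, 4943, 4213 and 4204 in milrinone samples with a dimmer probe set, overlapping, a log2 difference of 0.15 (adjusted p = 0.622). The brightest one differed by 0.04, from 7676 ± 585 (SD, n = 4) to 7905 ± 760.5 (SD, n = 4), and another by 0.08. Iars, the isoleucine enzyme, had 4335 ± 363 (SD, n = 4) and 4335 ± 156 (SD, n = 4), and Rars, the arginine enzyme, had 5784 ± 592 (SD, n = 4) and 5694 ± 170.5 (SD, n = 4). The interval of Rars, -0.21 to 0.17, was among the narrowest of the family. Lars, the leucine enzyme, differed by -0.0074 with 2485, 2484, 2294 and 1685 in untreated and 2111, 2285, 2176 and 2227 in milrinone samples. For Eprs, which joins the glutamate and proline enzymes in 1 protein, the probe sets did not agree on untreated array 4. The brightest had 1260.2, 1141, 1269 and 947 in untreated samples, lowest on array 4, whereas the remaining tested ones had 723, 792, 776 and 1140.1, and 211, 220.4, 241 and 535, both highest there. These dimmer probe sets of Eprs differed by -0.20 (95% interval -0.69 to 0.28) and -0.06 (95% interval -0.67 to 0.55), against 0.14 for the brightest, outside the range and the bound given for the brightest probe sets.

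Outside the complex, the 10 tested cytosolic genes had log2 differences of -0.20 to 0.17 and a median of -0.02. Hars, the histidine enzyme, varied widely among the untreated arrays. Its brightest probe set had 982, 373, 671 and 594 in untreated and 803, 661, 574 and 695 in milrinone samples and differed by 0.13. A dimmer probe set of Hars had 443, 225, 275 and 477 in untreated and 249.6, 266, 309 and 268 in milrinone samples and differed by -0.30 (95% interval -0.82 to 0.22, adjusted p = 0.649). Without untreated array 4 this was -0.14, without untreated array 1 -0.18 and without untreated array 2 -0.48, and with array weights -0.0019. The pair of probe sets thus pointed in opposite directions. Nars, the asparagine enzyme, had 2395, 2411, 2387 and 2044 in untreated and 2443, 2627, 2397 and 2453 in milrinone samples with 1 probe set, and 2513, 2851, 3270.4 and 3114 against 3025, 3635, 3055 and 3029 with the other, which differed by 0.10 and 0.12. Sars, the serine enzyme, had 2427, 2718, 2865 and 3670.0 in untreated and 2791, 2925, 2567 and 2111 in milrinone samples, a log2 difference of -0.16 (adjusted p = 0.699). The highest untreated and the lowest milrinone value of Sars were both on array 4 of their group, and the difference was -0.046 without the first and -0.066 without the second. Aars, the alanine enzyme, differed by 0.06 with its brightest probe set, at 1994 ± 336 (SD, n = 4) and 2059 ± 158 (SD, n = 4), and by -0.17 with a dimmer one that had 743, 778, 823 and 820.2 in untreated and 679.6, 897, 545 and 728 in milrinone samples. The remaining Cars, Tars and Wars, for cysteine, threonine and tryptophan, differed by -0.07, -0.08 and 0.03.

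Vars and Yars, for valine and tyrosine, were the cytosolic genes that could not be tested. Vars had 1 probe set, listed on untreated arrays 1 and 2 at 328 and 220.1 and empty on the other 6. The array with the higher value was also the one with the highest granulosa marker sum, 99077 against at most 25144 elsewhere, and the part of those cells in this value was not tested. The only probe set of Yars was empty on all 8 arrays. Since the rule for empty cells is unknown, neither gene is shown to be absent.

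The amino acid response acts through a short DNA element, the C/EBP-ATF response element, to which ATF4 binds with a partner. Its core was searched as TGATGNAA on both strands of the promoter windows of the RefSeq table (mouse build GRCm38.p6, 250 bases before to 50 after the start site), which held 26 of the 35 genes (no entry: Cars, Hars, Lars, Nars, Rars, Vars, Wars, Hars2, Pars2). A match was present for 5 of 12 cytosolic genes and 0 of 14 mitochondrial genes, against 4.51% of all 27025 genes with an entry. By window, 3.97% of all 32851 promoter windows held a match. The 5 sequences are shown because they set the cytosolic genes that carry this core beside their levels in the oocyte. They are read 5′ to 3′ on the strand of the gene with the core, or its reverse complement, in capitals.
Aars (chr8:111033700-111033762, plus strand): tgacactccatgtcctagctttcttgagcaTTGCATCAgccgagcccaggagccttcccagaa
Gars (chr6:55037941-55038003, plus strand): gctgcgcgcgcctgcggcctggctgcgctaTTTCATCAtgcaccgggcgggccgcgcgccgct
Iars (chr13:49682107-49682159, plus strand): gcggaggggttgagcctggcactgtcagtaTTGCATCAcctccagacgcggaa
Tars (chr15:11399641-11399703, minus strand): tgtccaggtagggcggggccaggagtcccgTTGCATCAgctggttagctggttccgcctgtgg
Yars (chr4:129189876-129189932, plus strand): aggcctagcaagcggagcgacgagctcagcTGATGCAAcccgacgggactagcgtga
Counted from the start site at 1, with no position 0, the core began at -112 in Aars, -30 in Gars, 8 in Iars, -15 in Tars and 4 in Yars. Aars held a second match, from 10 to 17. The Aars, Iars and Tars windows share the letters TTGCATCA, which are the reverse complement of the core in Yars.

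For the 4 measured genes with this core, every 95% interval of the log2 difference crossed zero. By brightest probe sets, Gars differed by 0.17, Aars by 0.06, Iars by 0.0032 and Tars by -0.08 (limma adjusted p = 0.567, 0.892, 0.990 and 0.839). A dimmer Aars probe set differed by -0.17, and Yars was empty on all arrays. Whether these genes differ from each other was not tested. Tars had 609, 789, 689 and 714 in untreated and 695, 666, 602 and 672 in milrinone samples, which overlapped. The complete cAMP response element TGACGTCA, bound by CREB downstream of the cAMP that phosphodiesterase inhibitors raise, was found in 0 of the 26 synthetase promoters and in 1.79% of all windows. The shorter TGACGT, also contained in the complete element, was found for 1 cytosolic gene (Eprs) and 3 mitochondrial genes (Aars2, Nars2 and Wars2), and in 7.51% of all windows. The E-box CACGTG was found for 4 cytosolic genes and 1 mitochondrial gene (7.15% of all windows), the ETS site CCGGAAGT for 2 and 1 (3.89%), the NRF1 site for 3 and 2 (4.60%) and the CCAAT box, CCAAT, for 7 and 6 (37.4%). A match is a description of letters, and none of these says that a factor was bound.

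Among the mitochondrial enzymes, 11 of 16 genes were tested, with 4 higher and 7 lower in milrinone, a median log2 difference of -0.02, and 0 calls. Sars2, the serine enzyme, had the smallest p. It had 110.0, 131, 158 and 166 in untreated and 148, 181, 186 and 171 in milrinone samples. On 3 of 4 milrinone arrays Sars2 lay above all untreated values, and it differed by 0.27 (95% interval -0.09 to 0.62, adjusted p = 0.575). Wars2, the tryptophan enzyme, had 157, 309, 185 and 176 in untreated and 318, 442, 189.9 and 205 in milrinone samples with its brightest probe set. Array 2 was the highest in both groups, the groups overlapped, and the log2 difference was 0.42 (95% interval -0.21 to 1.05, adjusted p = 0.606), or 0.20 without milrinone array 2 and 0.62 without untreated array 2. A dimmer probe set of Wars2 differed by 0.04, with 62.3 ± 7.56 (SD, n = 4) and 64.1 ± 2.17 (SD, n = 3).

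Yars2 and Ears2, for tyrosine and glutamate, had lower means in milrinone. Yars2 had 138, 138, 107 and 125 in untreated and 121, 86.5, 95.5 and 117 in milrinone samples, overlapping, with a log2 difference of -0.25 (95% interval -0.59 to 0.09, adjusted p = 0.580), and 0.0077 with a second probe set. Ears2 had 233, 255, 232 and 251 in untreated and 224, 202, 169.9 and 245 in milrinone samples with its brightest probe set, a log2 difference of -0.20 (adjusted p = 0.635). A dimmer Ears2 probe set was listed on all 4 untreated arrays at 51.9, 62.9, 49.6 and 64.1 and empty on all milrinone arrays. The brighter probe set was listed on all 8, so the gene as a whole was measured in both groups.

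Fars2, the phenylalanine enzyme of the mitochondrion, had tested probe sets that pointed in opposite directions. The brighter one had 2184, 2338, 2984 and 2848 in untreated and 2275, 2752, 2136 and 1915 in milrinone samples and differed by -0.19 (adjusted p = 0.647). The dimmer one had 32.2, 35.3, 57.0 and 62.5 in untreated and 56.6, 44.5, 55.6 and 177 in milrinone samples and differed by 0.52 (95% interval -0.22 to 1.27, adjusted p = 0.594). Milrinone array 4 held the highest of the dimmer and the lowest of the brighter values, and leaving out 1 array at a time moved the difference of the dimmer probe set between 0.15 and 0.71.

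Lars2, the leucine enzyme, had 774, 741, 755 and 742 in untreated and 853, 961, 723 and 721 in milrinone samples, which lay on both sides of the tight untreated values, and differed by 0.10. Cars2, for cysteine, had 256, 316, 297 and 295 in untreated and 244, 333, 248 and 274 in milrinone samples and differed by -0.09. Tars2, for threonine, had 351, 295, 225 and 254 in untreated and 279.6, 252, 272 and 261 in milrinone samples. Its log2 difference was -0.06, or 0.051 without untreated array 1, which held its highest value. Pars2, Rars2 and Vars2, for proline, arginine and valine, differed by -0.0030, -0.02 and 0.02, and Pars2 was measured on 3 milrinone arrays and Vars2 on 3 untreated arrays.

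The 5 mitochondrial genes that could not be tested were Iars2, Nars2, Hars2, Mars2 and Aars2. Iars2, for isoleucine, was listed on all 4 untreated arrays at 191, 103, 70.4 and 60.6 and on milrinone array 2 alone at 63.3. Its untreated values had the same order as the numbers of listed probe sets on those arrays, 23269, 21184, 20007 and 18888. The highest was on the array with the highest granulosa marker sum, and the part of either in this result was not tested. Nars2, for asparagine, was listed at 99.0 and 55.9 on untreated arrays 1 and 2 and at 33.0 and 38.4 on milrinone arrays 3 and 4. A dimmer Nars2 probe set was listed on untreated array 2 alone at 9.42. Hars2 was listed on untreated array 1 alone at 85.5, Mars2 on milrinone array 2 alone at 12.4, and Aars2 on no array. In all, 2 of 72 synthetase probe sets (2.78%), those of Iars2 and the dimmer one of Ears2, were listed on at least 3 untreated and at most 1 milrinone array, against 3.12% of all probe sets. The opposite pattern was seen for 0 synthetase probe sets, and both patterns together for 3.77% of all probe sets.

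The cytosolic and mitochondrial enzymes were then set beside each other array by array. Over the genes listed on all 8 arrays, the mean log2 level relative to the untreated mean was -0.03, 0.02, 0.0050 and -0.0030 for 17 cytosolic genes on untreated arrays 1 to 4 and 0.00018, 0.08, -0.07 and -0.02 on milrinone arrays 1 to 4. For 9 mitochondrial genes it was -0.05, 0.09, -0.05 and 0.01, and 0.02, 0.13, -0.13 and -0.03. Both classes were highest on milrinone array 2 and lowest on milrinone array 3. The milrinone mean was -0.0018 ± 0.06 (SD, n = 4) for the cytosolic and -0.0015 ± 0.11 (SD, n = 4) for the mitochondrial class. The cytosolic minus mitochondrial mean was 0 ± 0.05 (SD, n = 4) in untreated samples by construction and -0.00036 ± 0.05 (SD, n = 4) in milrinone samples. Over these genes and under the deposited scaling, no shift between the compartments larger than the spread between arrays was seen. No p is given for these means, because the genes were chosen with earlier results of these data known. The difference of the class medians over all tested genes, 0.02 under the deposited scaling, depended on the setting. It was 0.12 with quantile normalization, 0.086 without untreated array 3 and -0.039 with array weights.

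**Figure D3:**
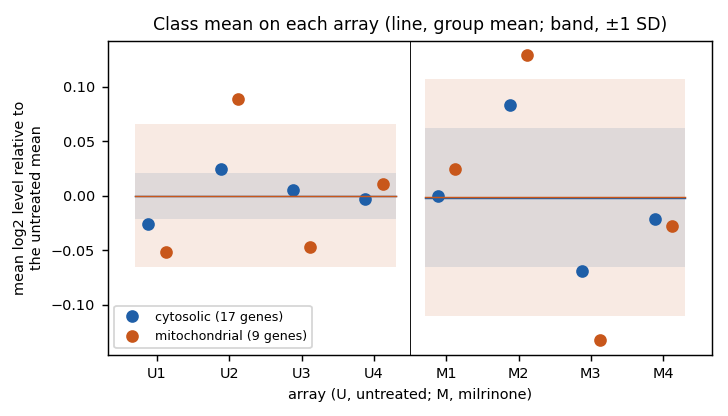
Mean log2 level of 17 cytosolic and 9 mitochondrial synthetase genes on each array, relative to the untreated mean of each class; lines give the group mean and bands 1 SD over 4 arrays. The milrinone points spread more than the untreated ones and centre on the same level, with milrinone 2 highest and milrinone 3 lowest in both classes.

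For amino acids with both enzymes tested, 10 pairs were compared within each array. This largely cancels a scaling factor shared by all probe sets of an array, but not a scaling that depends on intensity. Quantile normalization is of that kind, and with it the cytosolic minus mitochondrial median difference was 0.12 in place of 0.02. The log2 ratio of the mitochondrial to the cytosolic probe set shifted by 0.43 for Sars2 over Sars, by 0.39 for Wars2 over Wars and by 0.11 for Lars2 over Lars from untreated to milrinone samples. It shifted the other way, by -0.34, for Ears2 over Eprs and by -0.06 over 3 milrinone arrays for Pars2 over Eprs. For the serine pair the ratio relative to its untreated mean was -0.06, 0.0056, 0.17 and -0.12 in untreated and 0.12, 0.32, 0.55 and 0.72 in milrinone samples, so 3 of 4 milrinone arrays lay above all untreated ones on that scale, with Sars itself lowest on the array of the highest ratio. The ratios of Cars2, Rars2 and Tars2 to their partners shifted by -0.02, -0.00081 and 0.02, and that of Fars2 by 0.02 over Farsa and by -0.00098 over Farsb. For the tryptophan pair the milrinone ratios ran from -0.21 to 1.02, highest on array 2. The groups overlapped in all 10 ratios. Each ratio used the brightest tested probe set of both genes, and the shifts depend on that choice. The dimmer probe set of Wars2 differed by 0.04, against 0.42 for the brightest. Those of Eprs differed by -0.20 and -0.06, against 0.14 for the brightest. Ratios with dimmer probe sets were not computed. These ratios were not tested, and probe sets of different genes need not respond alike to the same change in RNA.

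The 8 other lists of translation and amino acid supply gave 0 called genes as well. List medians take each gene by its brightest tested probe set, and counts at an unadjusted p use any of its probe sets. Over all 9454 tested genes with 1 symbol, 8.19% had a probe set that was higher and 5.31% one that was lower at an unadjusted p under 0.05. The scaffold genes of the multi-synthetase complex, Aimp1, Aimp2 and Eef1e1, were all tested, and 0 passed limma and 0 had an unadjusted p under 0.05. Aimp2 differed by -0.03 and Eef1e1 by 0.03, while Aimp1 differed by -0.66 (95% interval -1.74 to 0.43, adjusted p = 0.635) with 794.6, 260.7, 351 and 666 in untreated and 102, 588, 286 and 402 in milrinone samples, a scatter that overlapped between groups. Of 5 tested cytosolic elongation factors, which bring charged tRNAs to the ribosome and move it along the message, 0 passed and all 5 had a lower mean in milrinone, with a median log2 difference of -0.16, or -0.03 without untreated array 1 and 0.01 after centring on ribosomal proteins. Eef1a1, which carries charged tRNAs, had 17718, 15193, 15269.8 and 14844 in untreated and 12498, 14184, 13518 and 14794 in milrinone samples. The groups of Eef1a1 did not overlap, and its log2 difference of -0.20 had a limma adjusted p of 0.483. Eef1d and Eef1b2, of the exchange factor complex, differed by -0.16 and -0.12. Cytosolic ribosomal proteins, taken by a name pattern, had a median of -0.18, with 40 of 46 genes lower, 0 passing, and 2 higher and 12 lower at an unadjusted p under 0.05. Their members with the smallest p, Rps3, Rps3a1 and Rpsa, were highest on untreated array 1, at 10484, 10527 and 9534. Without that array 28 of 46 genes were lower and the median was -0.03. Its high somatic marker sums stood beside these values, and their part in the result was not tested.

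In the mitochondrial translation system, of 12 tested translation factors 0 passed limma, with 2 higher and 1 lower at an unadjusted p under 0.05. Their median log2 difference was 0.09, or -0.09 after quantile normalization and 0.30 after centring on cytosolic ribosomal proteins. Gfm2, a factor for ribosome recycling, differed by 0.52 with its dimmer and 0.19 with its brightest probe set. The dimmer one had 62.4, 41.4, 64.8 and 60.8 in untreated samples and 102, 97.5 and 68.7 on the 3 milrinone arrays that listed it (adjusted p = 0.480). Tsfm, the exchange factor of the mitochondrial elongation factor, differed by -0.42 and Mtrf1l, a release factor, by 0.36. Of 74 tested mitochondrial ribosomal protein genes 0 passed (5 higher and 1 lower at an unadjusted p under 0.05). Their median was 0.03, or -0.16 after quantile normalization and 0.20 after centring on cytosolic ribosomal proteins. Mrpl9 differed by 0.81 (95% interval 0.33 to 1.28, adjusted p = 0.402), from 2518 ± 799.8 (SD, n = 4) to 4292 ± 756 (SD, n = 4), and Mrpl22 by 0.22 and Mrpl27 by -0.57.

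Genes that process tRNA, or edit and extend what the synthetases make, did not pass either. Of 13 tested genes of tRNA maturation and export 0 passed limma and 0 had an unadjusted p under 0.05. Their median log2 difference was 0.08, or -0.06 after quantile normalization and 0.24 after centring on ribosomal proteins. Rpp21, of the RNase P complex, differed by 0.38, Rtcb, the tRNA ligase, by 0.39 over 3 arrays a group (0.08 with its brightest probe set), and Elac2, which trims the 3′ end, by 0.26. Of 5 tested genes for editing and synthetase-like proteins 0 passed, with a median of -0.13, or -0.38 after quantile normalization and 0.04 after centring on ribosomal proteins, and 1 gene at an unadjusted p under 0.05. That gene was Sepsecs, which makes selenocysteine on its tRNA, with 1039.5, 1082, 1263 and 964 in untreated and 1141, 1268, 1470.2 and 1593 in milrinone samples and a log2 difference of 0.32 (adjusted p = 0.514).

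The genes of the amino acid response, many of them ATF4 targets, had 25 tested members of 30 on the array. None passed limma, 4 were higher and 1 lower at an unadjusted p under 0.05, and the median log2 difference was 0.04, or -0.14 after quantile normalization and 0.21 after centring on ribosomal proteins, with 20 of 25 genes higher. Eif2ak1, a kinase that slows translation under stress, had 1509, 1576, 2097 and 1818 in untreated and 2259, 2380.0, 2522 and 2212 in milrinone samples. Its groups did not overlap, and the log2 difference was 0.43 (95% interval 0.15 to 0.71, adjusted p = 0.456). Phgdh, the first enzyme of serine synthesis, had 333, 366, 354 and 267 against 504.6, 470.0, 504 and 411 and differed by 0.50 (adjusted p = 0.460), also without overlap, and by 0.41 with its brightest probe set. Mthfd2, a mitochondrial folate enzyme, differed by 0.19 (adjusted p = 0.513) with 1 probe set and by -0.03 with its brightest. The 3 most negative differences of the list, named after their values were seen, were larger in size. They were -0.87 for Eif4ebp1, a repressor of translation initiation, -0.81 for Eif2ak3, a kinase of the endoplasmic reticulum stress response, and -0.72 for Psat1, which follows Phgdh in serine synthesis (limma adjusted p = 0.522, 0.514 and 0.558). Eif2ak3 was the gene that was lower at an unadjusted p under 0.05. The TGATGNAA core was present for 7 of the 27 genes of this list with a promoter entry, against 4.51% of all 27025 genes with an entry.

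**Figure D4:**
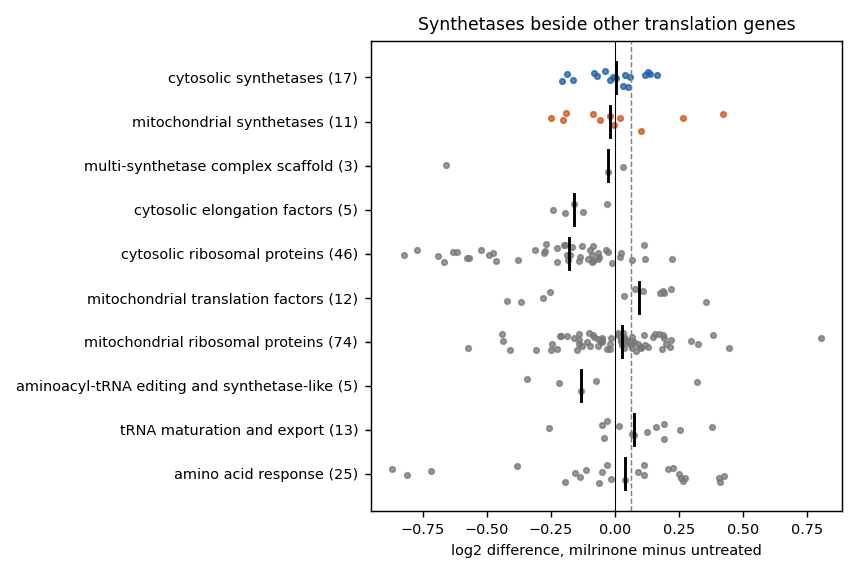
Log2 difference (milrinone minus untreated) of each gene (its brightest tested probe set), for the synthetases and for 8 other gene lists of translation and amino acid supply, with the number of genes in parentheses; black bars are medians and the dashed line is the median of all tested probe sets, 0.06. The cytosolic synthetases lie between -0.20 and 0.17, while the cytosolic ribosomal proteins have a median of -0.18, or -0.03 without untreated array 1.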

How the data were processed

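The authors deposited 1 intensity per probe set and array on a linear scale. How values were summarised, scaled or left empty is not given in the sources used. The members and gene lists were chosen with earlier results of these data known. Gene symbols came from the platform annotation, with updated symbols through RefSeq adding 0 synthetase probe sets. The deposited scaling was kept, empty cells were left empty, and control probe sets were left out. Intensities were analysed as log2(intensity + 16), which understates changes of dim probe sets. Those listed on 3 or more arrays of both groups were tested over the whole array with limma 3.58.1 in R 4.3.3 (eBayes with a trend, two-sided, Benjamini-Hochberg, threshold 0.05). The procedure was also run on simulated data, with changes larger than any synthetase difference given here. How well it recovers smaller changes was not examined. The number of arrays limits the precision.

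Genes given array by array were, by rule, the 8 cytosolic and 8 mitochondrial genes with the smallest limma p, those listed mainly in 1 group and those whose probe sets disagreed by over 0.5. Other members given array by array (Eprs in untreated samples only, Lars, Tars, Vars, Nars2, Hars2, Mars2) and the promoter motifs were chosen after values were seen. From other lists up to 3 genes with the smallest p are named. Plots were made in Python 3.11.15 (matplotlib 3.10.9). Alternatives covered the pseudocount, the listing filter, the scaling, array weights, the variance prior, a replicate block and leaving out each array.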

Additional observations from a re-analysis of the deposited data

Results flagged for a closer look

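All tested synthetase probe sets and the class means were examined wherever a group had 4 values. In 12 of 90 such groups 1 value lay far from the other 3, where chance gives about 1 in 20, or 4.5 groups. The distance of that value to its neighbour, as a share of the whole range, is given for each. Milrinone array 2 was the highest for Farsa (0.838), for a Nars probe set (0.947, at 3634.6), for a Qars probe set (0.866, at 4942.7) and for a Wars probe set (0.946, at 392.4), and milrinone array 3 for a dimmer Wars probe set (0.863, at 108.0). Milrinone array 4 was the highest for the dimmer Fars2 probe set (0.843, at 177.2) and for Vars2 (0.964, at 171.7). Untreated array 2 was the highest for Rars (0.883, at 6668.7) and for the brightest Wars probe set (0.836, at 1089.5). Untreated array 4 was the lowest for the other Nars probe set (0.941, at 2043.9) and the highest for an Eprs probe set (0.861, at 535.1), and untreated array 1 the lowest for a dimmer Iars probe set (0.961, at 1043.8).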

How the results depend on the processing

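No synthetase probe set passed at an adjusted p under 0.05 under any of the 18 alternatives that refitted the test, and over the 16 named genes the lowest adjusted p was 0.186. The count at an unadjusted p under 0.05, 0 as reported, was 1 with a pseudocount of 64 and without the trend, 2 with a listing filter of 2 arrays and with centring on the median, 3 with array weights, 9 with quantile normalization, and 0 to 2 leaving out 1 array at a time. Over all tested probe sets the share at that threshold was 9.63% as reported, 12.6% with array weights and 11.6% with quantile normalization. It was 9.19% to 10.04% in the other settings named and 6.04% to 12.8% leaving out 1 array. With quantile normalization, 9 of 46 synthetase probe sets were a larger share than that of all tested probe sets. With array weights, 3 of 46 were a smaller one. Scaling set the direction: the median of all tested probe sets, 0.06 as deposited, became -0.13 with quantile normalization and 0.23 with centring on ribosomal proteins, and the synthetases followed. Their cytosolic median became -0.15 and 0.17 and their mitochondrial median -0.27 and 0.15, with 2 of 28 and 23 of 28 genes higher. Cytosolic minus mitochondrial was 0.02 as reported, 0.12 with quantile normalization, -0.039 with array weights, -0.036 with the mean over probe sets of a gene, and 0.0057 to 0.086 leaving out 1 array. Leaving out 1 array gave -0.03 to 0.03 for the cytosolic and -0.08 to 0.0064 for the mitochondrial median. Of 288 values of single genes, 280 kept direction and side of the threshold. Leaving out 1 array gave, for the probe set with the smallest p, -0.28 to -0.05 for Aars, -0.18 to -0.035 for Cars2, -0.28 to -0.11 for Ears2, 0.02 to 0.15 for Lars2, 0.05 to 0.13 for Nars, 0.08 to 0.22 for Qars and 0.16 to 0.34 for Sars2. Quantile normalization turned Gars to -0.0061, Lars2 to -0.12 and Nars to -0.051. Centring on ribosomal proteins turned Cars2 to 0.083, Sars to 0.0070 and Tars2 to 0.11, and array weights turned Tars2 to 0.087; without untreated array 1 it was 0.051. The cause was not tested. Correlations of deviations ran from -0.27 to 0.03 for equal replicate numbers and from -0.18 to 0.28 for unequal ones. With 4 arrays a group this cannot decide whether the arrays were paired. The replicate block gave 0 calls among the synthetases, medians of 0.0032 and -0.02, and 13 calls over the array in place of 19.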

Other observations

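Over the 26 synthetase genes listed on all 8 arrays, untreated array 1 held the highest or the lowest of the 8 values for 12 genes (46.2%), against 55.5% of all tested probe sets listed on all 8 arrays. Untreated array 4 did so for 8 genes (30.8% against 39.5%) and milrinone array 2 also for 8 (30.8% against 23.0%), for 7 of them as the highest. Milrinone array 1 did so for 1 gene (3.85% against 20.1%). On untreated array 4, Farsa at 1809 and Sars at 3670.0 were the highest of the 8 values, and Lars at 1685 and Aars at 1629.9 were the lowest.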
